A study of Mus musculus with 2 samples.

Results

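Odontoblasts, the cells that lay down dentin, were examined in single-cell transcriptomes of lower first molars with the tissue around them, taken from C57BL/6J mice at PN15.5. The mice had been injected intraperitoneally with clodronate liposomes (Lipo-Clo, 40 μg/g), which kill phagocytes that take them up, or with an equal volume of vehicle liposomes (Lipo-PBS). Injections were given first at PN3.5, next at PN6.5, then at PN9.5 and last at PN12.5. Each condition is 1 library of unsorted cells, both labelled with the same batch, and the number of mice behind a library is not given in the sources used here. A cell was called an odontoblast when it had at least 200 genes, at most 20% mitochondrial unique molecular identifiers (UMIs), at least 10 Dspp UMIs, at least 1% of its UMIs from Col1a1 and less than 1% from the enamel genes Ambn, Amtn, Odam and Klk4. The rule selected 76 of the 17780 cells that passed the filter on genes and mitochondrial UMIs, 52 from Lipo-Clo plus 24 from Lipo-PBS. They held 288739 and 130112 UMIs, with a median of 4568 UMIs per cell (553 to 18128) in Lipo-Clo and 4672.5 (729 to 15041) in Lipo-PBS.

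With 1 library per condition, the treatment and the library cannot be told apart and no test between conditions was possible. The intervals given, apart from those of list medians, are exact 95% intervals (Clopper-Pearson for shares, Poisson for counts and their ratios). They cover counting error only and leave out variation between cells and between mice. For some genes the share of UMIs from the top cell is given. The libraries shared 30 barcodes, and none of them belonged to an odontoblast.

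Odontoblasts are tall, postmitotic cells at the edge of the dental pulp that secrete a collagen I matrix and let it mineralize into dentin. Dspp encodes dentin sialophosphoprotein, the noncollagenous protein most characteristic of dentin, and Col1a1 the main chain of collagen I. Dmp1 and Phex belong to the proteins that control phosphate and mineral in dentin and bone, and osteocalcin (Bglap and its near copies Bglap2 and Bglap3) binds calcium in both tissues. During root formation, new odontoblasts arise from the papilla while those of the crown already form dentin, so cells of different maturity lie side by side.

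Odontoblasts made up 0.585% of the kept Lipo-Clo cells (52 of 8886, 0.437 to 0.767%) and 0.270% of the Lipo-PBS cells (24 of 8894, 0.173 to 0.401%). The share was thus 2.17-fold higher in Lipo-Clo, a log2 ratio of 1.12 (0.39 to 1.88). Of cells with at least 1% Col1a1 UMIs, the odontoblasts were 1.36% (52 of 3828) and 0.527% (24 of 4551), a log2 ratio of 1.37 (0.64 to 2.13). The ratio depended on the Dspp limit. With at least 20 Dspp UMIs, 31 and 18 cells were left and the log2 ratio of 0.79 had an interval that included equal shares (-0.10 to 1.71). After every cell had been thinned to 1500 UMIs and odontoblasts called from 5 Dspp UMIs, they were 0.486% of 6582 and 0.229% of 6997 cells, with 2304 and 1897 shallower cells left out.

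The values that selected the cells are given as a description. Dspp ranged from 10 to 163 UMIs per cell in Lipo-Clo (median 24, 1697 in all) and from 10 to 90 in Lipo-PBS (median 37.5, 911 in all). As a share of a cell's UMIs the medians were 0.600% and 0.921%. Lipo-Clo spanned 0.0960 to 3.94% and Lipo-PBS 0.0997 to 2.47%, so the Lipo-PBS range lay within that of Lipo-Clo, which reached higher. Col1a1 had nearly the same median share in both, 11.04% (2.58 to 21.9%) and 11.10% (3.64 to 21.4%). No cell with 10 Dspp UMIs fell under the Col1a1 limit, and the enamel limit removed 2 cells in each library. Just inside the limit, with 10 or 11 Dspp UMIs, lay 5 Lipo-Clo and 2 Lipo-PBS cells, and just outside, with 8 or 9, lay 13 and 3. Those 13 cells had a median of 2772 UMIs and 12 of them held a Phex UMI. The limit therefore falls inside a continuous range of Dspp counts.

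By the rule, which asks for 10 Dspp UMIs, these cells hold most of the Dspp transcripts. They held 81.3% of all Dspp UMIs of kept cells in Lipo-Clo, compared with 67.6% in Lipo-PBS. Elsewhere the share of cells with a Dspp UMI was 1.56% of leukocytes (192 cells, median 3443.5 UMIs) and 2.41% of erythroid cells (664 cells, median 3831 UMIs) in Lipo-Clo. In Lipo-PBS it was 1.95% of 154 leukocytes (median 2240 UMIs) and 3.39% of 944 erythroid cells (median 3693 UMIs). Neither type makes Dspp, so a cell with 1 or a few Dspp UMIs is not told apart from free RNA. These erythroid cells leave out 2 Lipo-PBS cells that had at least 20% haemoglobin UMIs but were called odontoblasts, with 49 and 36 Dspp UMIs.

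**Figure D1:**
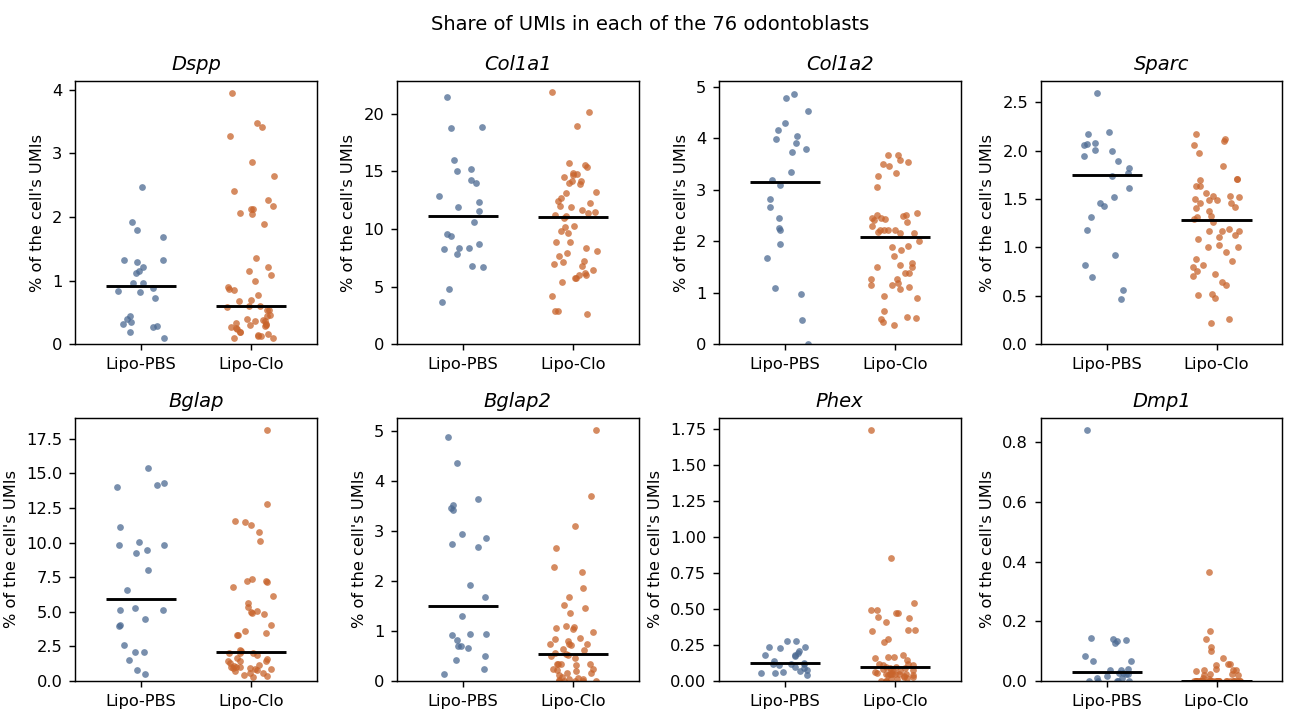
Share of the UMIs of each odontoblast (percent, vertical axis) taken by 8 matrix and mineralization genes, with 1 point per cell, 24 Lipo-PBS and 52 Lipo-Clo, and a black line at the median. Dspp and Col1a1 selected the cells. Col1a1 medians are alike (11.10% and 11.04%), whereas the Bglap median is 5.91% in Lipo-PBS and 2.11% in Lipo-Clo.

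The label was checked against marker genes, of which Dspp had selected the cells and says nothing further. All 10 odontoblast markers (Dspp, Dmp1, Phex, Nes, Col11a2, Smpd3, Wnt10a, Ifitm5, Mmp20 and Cdh11) were detected in both libraries. Detection alone separates little. All 5 pulp or papilla markers (Lrrc4c, Kcnip4, Ctnnd2, Cldn10 and Pcp4) were detected in both libraries too. Of 12 leukocyte markers, 9 were detected in Lipo-Clo and 4 in Lipo-PBS. Phex, an endopeptidase whose loss causes hypophosphataemia with poorly mineralized dentin, had a UMI in 49 of 52 Lipo-Clo and 24 of 24 Lipo-PBS cells. Among leukocytes, the share with a Phex UMI was 0.521% (Lipo-Clo, 1 of 192 cells) or 0.649% (Lipo-PBS, 1 of 154 cells). Col11a2, a chain of the minor fibrillar collagen XI, was seen in 50 of 52 and 24 of 24 cells, and the metalloproteinase gene Mmp20, known from enamel and dentin matrix processing, in 39 and 19. Of the 8 markers of osteoblasts, osteocytes or cementoblasts, 6 were detected in each library. They summed to 62094 CPM in Lipo-Clo against 89346 in Lipo-PBS, most of it Bglap, beside 9857 and 12720 CPM for the odontoblast markers, of which Dspp made up 5877 and 7002 CPM. Mepe and Phospho1 were at 0 in both. Ibsp (bone sialoprotein) was at 828 CPM (UMIs per 1000000 UMIs of the same cells) in Lipo-Clo odontoblasts and 123 CPM in Lipo-PBS, against 11200 and 10488 CPM in osteocalcin-high cells. Those comparison cells passed the same Col1a1 and enamel limits, had under 10 Dspp UMIs and at least 10 UMIs of Bglap plus Bglap2, and there were 316 of them in Lipo-Clo against 422 in Lipo-PBS. The other Col1a1-high cells, with under 10 UMIs of Bglap plus Bglap2, numbered 3460 and 4105.

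Set against the other Col1a1-high cells, 199 of 1921 genes seen in at least 25% of odontoblasts of each library were at least 2-fold higher in both libraries (10.4%). Against the osteocalcin-high cells the count was 118 (6.14%). The cells were selected on Dspp and Col1a1, so these differences describe the selection and were not tested. The 20 genes with the highest smaller ratio over the other Col1a1-high cells included Bglap, Mmp20, Mypn, Bglap2, Bglap3, Ccdc194, Phex, Mapt, Phactr3, Mpzl2, Gm40193, Stac3, Adamtsl2, St8sia1, Kcnk2, Dtna, Nkain2, Shank2 and Crtac1. The osteocalcin genes stand in this list partly by construction, since few Bglap and Bglap2 UMIs defined the comparison cells.

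Mmp20 reached 426 CPM in Lipo-Clo against 623 in Lipo-PBS odontoblasts, against 1.70 and 0.957 CPM in the other Col1a1-high cells and 20.2 and 14.6 CPM in osteocalcin-high cells. Phex was at 1015 and 1291 CPM against 60.5 and 58.9 CPM in osteocalcin-high cells, and Kcnk2, the mechano- and heat-sensitive potassium channel TREK-1, at 506 and 646 CPM against 47.0 and 40.1 CPM. Several leading genes are better known from nerve or muscle. Mapt (the microtubule protein tau) stood at 156 and 138 CPM against 5.50 and 2.36 CPM in osteocalcin-high cells. Mypn (myopalladin, an actin-bundling protein of the sarcomere) stood at 218 and 154 CPM against 14.05 and 6.60 CPM. Nestin (Nes), the intermediate filament protein long used to mark odontoblasts, was at 305 and 484 CPM, and at 13.5 and 14.98 CPM in the other Col1a1-high cells. Runx2 and Alpl, unlike Bglap and Bglap2, were lower in odontoblasts than in osteocalcin-high cells. Runx2, the osteoblast transcription factor, was at 156 and 154 CPM in odontoblasts and at 666 and 705 CPM in osteocalcin-high cells, and Alpl (tissue-nonspecific alkaline phosphatase) at 69.3 and 92.2 against 268 and 246 CPM.

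**Figure D2:**
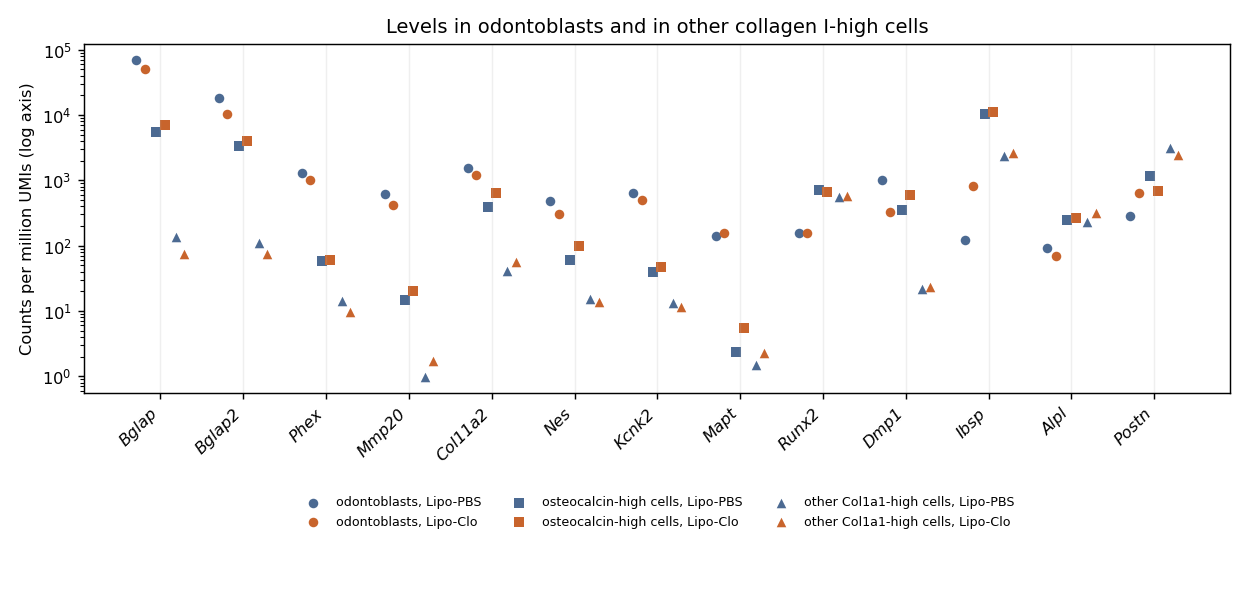
CPM (log axis) of 13 genes in odontoblasts (circles), osteocalcin-high cells (squares) and other Col1a1-high cells (triangles) of Lipo-PBS (blue) and Lipo-Clo (orange), 1 library each. Phex, Mmp20, Kcnk2 and Mapt are highest in odontoblasts of both libraries, and Runx2, Ibsp and Alpl are lowest there. Bglap and Bglap2 defined the comparison cells.

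The sequences before the start sites of Bglap and Mmp20, the 2 leading genes of that list, are shown because they head the ranking. Both are 250 bases up to the RefSeq start site on GRCm38.p6, 5′ to 3′ on the gene's strand: Bglap at chr3:88384467-88384716 (minus strand) and Mmp20 at chr9:7627981-7628230 (plus strand). Capitals mark the RUNX core ACCACA and the TATA box TATAAA, searched on both strands.
Bglap: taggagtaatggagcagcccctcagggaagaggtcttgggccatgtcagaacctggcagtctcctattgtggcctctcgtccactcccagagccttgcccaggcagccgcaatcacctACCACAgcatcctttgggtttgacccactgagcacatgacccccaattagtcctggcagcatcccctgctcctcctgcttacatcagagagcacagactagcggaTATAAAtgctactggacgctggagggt
Mmp20: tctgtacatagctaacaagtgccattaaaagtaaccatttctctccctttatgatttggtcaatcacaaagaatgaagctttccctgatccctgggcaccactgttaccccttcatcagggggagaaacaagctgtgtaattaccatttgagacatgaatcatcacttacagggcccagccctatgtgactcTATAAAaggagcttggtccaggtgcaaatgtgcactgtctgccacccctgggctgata
Counting the base before the start site as -1, Bglap has the RUNX core from -132 and the TATA box from -27, and Mmp20 has a TATA box from -58. The 2 motifs do not overlap. In windows that also take in 50 bases after the start, 12 of the 20 leading genes were matched. The RUNX core was in 2 of these (Bglap and Gm40193) and the TATA box in 5 (Bglap, Mmp20, Mypn, Adamtsl2 and Crtac1). Of all 32851 such windows, 16.8% hold ACCACA or TGTGGT and 13.6% hold TATAAA or TTTATA. A match describes the letters and not a bound site.

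The odontoblasts were not uniform. The Dspp share was lower in deeper cells (Spearman's rho -0.79 over 52 cells and -0.79 over 24), which a limit of 10 UMIs favours, since a shallow cell passes only with a high share. Across the same cells, whose points share library and depth, the Phex share went with the Dspp share (rho 0.74 and 0.43) and the Bglap share did not (rho -0.09 and 0.19). The Bglap share had a rho of 0.36 with the UMIs of a cell in Lipo-Clo and 0.05 in Lipo-PBS. Bglap and Bglap2 shares went together (rho 0.88 and 0.95), but these near-identical genes can trade reads. The cells were also put in 3 groups by Dspp share, cut at 0.393% and 1.15%. From the lowest to the highest group, Phex stood at 643, 761 and 3690 CPM in Lipo-Clo and at 1021, 1413 and 1531 CPM in Lipo-PBS. Mmp20 stood at 217, 428 and 1444 CPM, and at 250, 671 and 1217 CPM. Both genes thus had their highest level where Dspp was highest, but this order was not separated from depth. In cells under 2000, of 2000 to 6000 and of at least 6000 UMIs, Phex was at 4041, 1410 and 608 CPM in Lipo-Clo. In Lipo-PBS it was at 1517, 1396 and 1183 CPM. Mmp20 was at 1286, 666 and 260 CPM in Lipo-Clo and at 607, 936 and 334 CPM in Lipo-PBS. Dmp1 had its lowest level in the group with most Dspp, 64.2 CPM in Lipo-Clo against 235 in Lipo-PBS, from 2 and 6 UMIs. Alpl had no UMI there in either library. The groups held 19, 16 and 17 Lipo-Clo cells and 6, 9 and 9 Lipo-PBS cells.

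**Figure D3:**
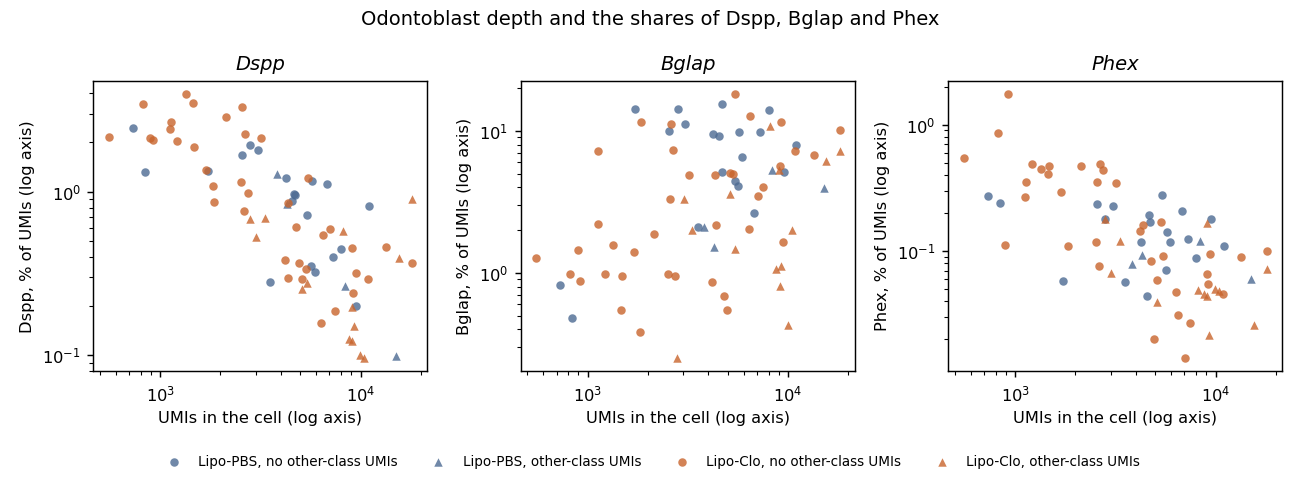
UMIs of each odontoblast (horizontal, log axis) against the percent of its UMIs from Dspp, Bglap and Phex (vertical, log axis), for Lipo-PBS (blue) and Lipo-Clo (orange). Triangles are cells with UMIs of another cell class, and cells without a Phex UMI are left off the Phex panel. Dspp and Phex shares are lower in deeper cells, while Bglap shares spread widely in cells of 2000 UMIs or more. Lipo-Clo holds most of the cells under 2%.

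Bglap and Bglap2, which the rule did not use, were lower in Lipo-Clo odontoblasts as pooled levels, and Bglap3 was not. Bglap gave 14516 UMIs in Lipo-Clo and 9101 in Lipo-PBS odontoblasts, 50274 and 69947 CPM. Per cell its share ran from 0.251 to 18.1% in Lipo-Clo (median 2.11%) and from 0.478 to 15.4% in Lipo-PBS (median 5.91%), so the ranges overlapped while the middle of the Lipo-Clo cells lay lower. The share was under 2% in 23 of 52 Lipo-Clo and 3 of 24 Lipo-PBS cells. The log2 ratio of the pooled level was -0.48 (-0.51 to -0.44), under the 1.5-fold limit used here, and it was -0.48 without the top cell of each library. Bglap2 was at 10362 and 18384 CPM, for a log2 ratio of -0.83 (-0.91 to -0.75). Bglap3 was at 357 and 269 CPM, from 103 and 35 UMIs, with a log2 ratio of 0.41 and an interval that included equal levels (-0.16 to 1.00).

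The low-osteocalcin cells were not only the shallow ones. Of the 23 Lipo-Clo cells with under 2% Bglap, 10 had under 2000 UMIs, and their median depth was 2525 UMIs against 5442 UMIs in the other Lipo-Clo cells. Among cells of 2000 to 6000 UMIs, the Bglap level was 41452 CPM in 20 Lipo-Clo cells and 72530 CPM in 14 Lipo-PBS cells. Among cells of at least 6000 UMIs it was 55659 CPM in 19 and 67161 CPM in 7. Under 2000 UMIs it was 27060 CPM in 13 cells and 77997 CPM in 3, but 1 of those 3 Lipo-PBS cells held 247 of their 257 Bglap UMIs. The median share per cell did not have 1 order across these bands, which were chosen after the values had been seen. It was 1.27% against 0.823% under 2000 UMIs, 2.75% against 7.90% from 2000 to 6000, and 5.33% against 5.28% from 6000, with Lipo-Clo first. The lower median of Lipo-Clo was thus found in the middle band. In the osteocalcin-high cells the order was opposite, 6941 CPM in Lipo-Clo against 5481 in Lipo-PBS, although Bglap chose those cells. In the other Col1a1-high cells, chosen for few Bglap and Bglap2 UMIs, Bglap was at 74.0 and 136 CPM, and in erythroid cells at 73.0 and 289 CPM, lower in Lipo-Clo as in odontoblasts. The part of free RNA in the odontoblast difference was not tested.

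Dmp1, which encodes an acidic phosphoprotein of dentin and osteocytes, was also lower in Lipo-Clo. It had 96 UMIs in 20 of 52 cells (332 CPM) and 134 UMIs in 19 of 24 Lipo-PBS cells (1030 CPM), a log2 ratio of -1.63 (-2.02 to -1.24). The top cell held 34.4% of these UMIs in Lipo-Clo and 42.5% in Lipo-PBS, and the ratio was -1.47 without them. It was -3.07 with at least 20 Dspp UMIs and -2.06 in cells without UMIs of other classes. Osteocalcin-high cells showed the opposite order here too, 589 CPM in Lipo-Clo against 348 in Lipo-PBS. Ibsp was higher in Lipo-Clo odontoblasts by 2.75 on the log2 scale (2.02 to 3.58), with 239 UMIs in 18 cells and 16 UMIs in 7 cells. One Lipo-Clo cell gave 84 of the 239, and most cells of either library had none. Spp1 (osteopontin) had 2 UMIs in Lipo-Clo and 11 in Lipo-PBS.

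Across all genes, 6257 had a UMI in at least 10% of the odontoblasts of either library and were not among the 6 genes of the rule. Of these, 1614 were at least 1.5-fold higher in Lipo-Clo (25.8%) and 1252 at least 1.5-fold lower (20%). With a counting interval clear of equal levels as well, 267 were higher (4.27%) and 200 lower (3.20%). Most of these genes are counted in few UMIs: only 1067 had 50 or more over both libraries. The median log2 ratio was 0.07. The counts for each list given next are to be read beside these shares. Over the same genes, 4.48% were at least 1.5-fold higher and 7.88% at least 1.5-fold lower in osteocalcin-high cells, and 1.18% and 5.48% in the other Col1a1-high cells, which held many more UMIs.

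Among matrix genes, Col1a2, Col5a2 and Col11a1 were lower in Lipo-Clo odontoblasts, and Col3a1, Col12a1 and Col27a1 were higher. Of 9 dentin and bone matrix genes used, 2 were past 1.5-fold higher and 4 lower, with a median log2 ratio of -0.48, beside the 25.8% and 20% of all genes. The same 9 genes had a median of 0.17 in osteocalcin-high cells and 0.08 in the other Col1a1-high cells. Sparc (osteonectin, a collagen-binding protein) was at 13358 and 17347 CPM, for a log2 ratio of -0.38 (-0.45 to -0.30). Of 15 collagen genes, 7 were past the limit higher and 2 lower. Col1a2, the partner chain of collagen I, was at 21840 CPM in Lipo-Clo against 32649 in Lipo-PBS, giving a log2 ratio of -0.58 (-0.64 to -0.52), just short of 1.5-fold. Its per-cell median share was 2.08% and 3.15%. Col5a2 and Col11a1, chains of the thin fibrils that nucleate collagen I, had log2 ratios of -0.63 (-0.83 to -0.43) and -0.63 (-0.84 to -0.41).

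Col3a1, the collagen of soft and pulpal connective tissue, was at 3363 CPM in Lipo-Clo against 799 in Lipo-PBS, giving a log2 ratio of 2.07 (1.78 to 2.38). The ratio was 1.69 in cells without UMIs of other classes and 0.55, under the 1.5-fold limit, with at least 20 Dspp UMIs. The FACIT collagen Col12a1 had 113 UMIs in 20 cells and 13 UMIs in 3 cells, and Col27a1, a fibrillar collagen of cartilage, was at 319 and 131 CPM (log2 ratio 1.29, 0.53 to 2.13). Col3a1 was abundant in the comparison cells (14885 and 13982 CPM in the other Col1a1-high cells), and the part of free RNA in its odontoblast level was not tested.

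Collagen folding, processing and cross-linking genes had a median of -0.02 over 20 genes, with 4 past the limit higher and 3 lower. P4ha1, a subunit of the collagen prolyl hydroxylase, had a log2 ratio of -1.11 (-1.84 to -0.37) and Plod2, the lysyl hydroxylase of cross-link sites, -0.61 (-0.97 to -0.24), while the chaperone gene Serpinh1 stood at -0.02 (-0.22 to 0.19). Proteoglycan genes had a median of 0.04 over 11 genes. Decorin (Dcn) was at 852 and 1468 CPM, for a log2 ratio of -0.78 (-1.06 to -0.50), and biglycan (Bgn) at 1167 and 1583 CPM, -0.44 (-0.69 to -0.18). Of 23 genes of mineralization and phosphate handling, 2 were past the limit higher and 5 lower, with a median of -0.15. Phex had a log2 ratio of -0.35 (-0.63 to -0.07), but the mean over equally weighted cells gave 0.50. In cells under 2000 UMIs its level was 4041 CPM in 13 Lipo-Clo cells and 1517 CPM in 3 Lipo-PBS cells, and in cells of at least 6000 UMIs 608 and 1183 CPM. Mmp20 was -0.55 (-0.96 to -0.12), but -0.41 (-0.87 to 0.06) in cells without UMIs of other classes and -0.03 with the 3 Dspp groups weighted equally. The interval for Phex in cells without such UMIs also included equal levels (-0.13, -0.44 to 0.18). The calcium pump gene Atp2b1, which exports calcium from the cell, was -0.48 (-0.75 to -0.22). The sodium-citrate transporter gene Slc13a5 had an interval that included equal levels (-0.31, -1.01 to 0.41).

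Of 24 transcription factors of the odontoblast and skeletal lineages, 6 were past the limit higher and 5 lower, with a median of 0.10, close to the 25.8%, the 20% and the median of 0.07 over all genes. Runx2 had 45 and 20 UMIs (log2 ratio 0.02, -0.77 to 0.86) and Sp7, a factor of mineralizing cells, 30 and 14 UMIs (-0.05, -1.01 to 0.98). The tooth mesenchyme homeobox genes Lhx8 and Barx1 had log2 ratios of 0.50 (-0.21 to 1.26) and 0.63 (-0.14 to 1.48). For Runx2, Sp7, Lhx8 and Barx1 a difference was not detectable at this depth.

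Of 27 BMP and TGF-β genes, 3 were past the limit higher and 6 lower, with a median of -0.15. The ligand gene Tgfb1 was lower, 54 and 40 UMIs (log2 ratio -0.72, -1.33 to -0.09), the ligand gene Tgfb3 had 50 and 13 UMIs (0.79, -0.11 to 1.80), and the target gene Id3 stood at 0.45 (0.06 to 0.85). Bambi, a pseudoreceptor that dampens both pathways, was alike at 1493 and 1622 CPM (-0.12, -0.36 to 0.12). Wnt genes had a median of 0.45 over the 20 with a ratio, 9 past the limit higher and 3 lower, but few had more than 50 UMIs. Over the 6 that did, the median was 0.04. Wnt10a, the odontoblast Wnt ligand, had 35 and 19 UMIs (-0.27, -1.11 to 0.62). The 8 hedgehog and Notch genes used had 159 UMIs in Lipo-Clo and 63 in Lipo-PBS, and 1 was past the limit higher and 2 lower (median 0.01).

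The secretory pathway and unfolded protein response, which carry the load of collagen export, had a median of -0.13 over 34 genes, 2 past the limit higher and 5 lower. The endoplasmic reticulum chaperone gene Hspa5 stood at -0.35 (-0.86 to 0.16) and the COPII coat gene Sec23a, needed to export procollagen, at -1.45 (-2.47 to -0.46). Cytoskeleton and polarity genes had a median of 0.26 over 19 genes. Actb (β-actin) was at 9199 CPM in Lipo-Clo against 3305 in Lipo-PBS, giving a log2 ratio of 1.48 (1.33 to 1.63), with 23.8% of the Lipo-Clo UMIs in 1 cell and a ratio of 1.37 without the top cells. Actb was higher in Lipo-Clo in the comparison cells as well, 11736 and 8114 CPM in osteocalcin-high cells and 13143 and 9419 CPM in the other Col1a1-high cells. Nes went the other way, -0.67 (-1.15 to -0.18), but its interval included equal levels in cells without UMIs of other classes (-0.37, -0.90 to 0.17).

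Odontoblasts border the sensory nerve endings of the pulp and carry channels for cold, pressure and calcium. Nerve and axon guidance genes had a median of -0.13 over 12 genes, with 1 past the limit either way. Sema5a, a guidance cue present in 48 and 23 cells, had a log2 ratio of -0.48 (-0.84 to -0.12). Of 9 channel genes used, 3 were past the limit higher and 2 lower, with a median of -0.29. That median kept its sign in 7 of 11 alternatives. It was 0.61 as a mean over scaled cells and 0.31 with the 3 Dspp groups weighted equally. The large-conductance potassium channel gene Kcnma1 was at 159 and 307 CPM (-0.95, -1.59 to -0.30) and the calcium release channel gene Itpr1 at 152 and 261 CPM (-0.78, -1.46 to -0.09). Kcnk2 and Trpm7, a channel with a kinase domain, had intervals that included equal levels (-0.35, -0.75 to 0.05, and -0.29, -0.65 to 0.08). Piezo1, a mechanically gated cation channel, had 23 UMIs in Lipo-Clo and 2 in Lipo-PBS (2.37, 0.36 to 5.50). Of 11 vascular and myeloid cues used, 4 were past the limit higher and 2 lower. Csf1 and Il34, ligands of the macrophage receptor Csf1r, had 1 UMI in each library and none in either, and Tnfsf11 (RANKL, the osteoclast ligand) had none. Taken as 3 UMIs, the floor used here, a count of 0 allows up to 10.39 CPM in Lipo-Clo and 23.1 in Lipo-PBS. Medians kept their sign in all 11 alternatives for the dentin and bone matrix, Wnt, cytoskeleton, and vascular and myeloid lists. So did those of the oxidative phosphorylation, immediate early and cell cycle lists. Those of the other 10 lists kept it in 6 to 10 of them. Alternatives that changed only the library totals shifted all ratios by the same amount, so they could hardly change the sign of a large median. With at least 20 Dspp UMIs, the Wnt and immediate early medians were 0.12, as was that of all genes. Among all lists, only oxidative phosphorylation (0.22 to 0.46) and immediate early genes (0.39 to 1.07) had an interval of the median clear of equal levels.

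**Figure D4:**
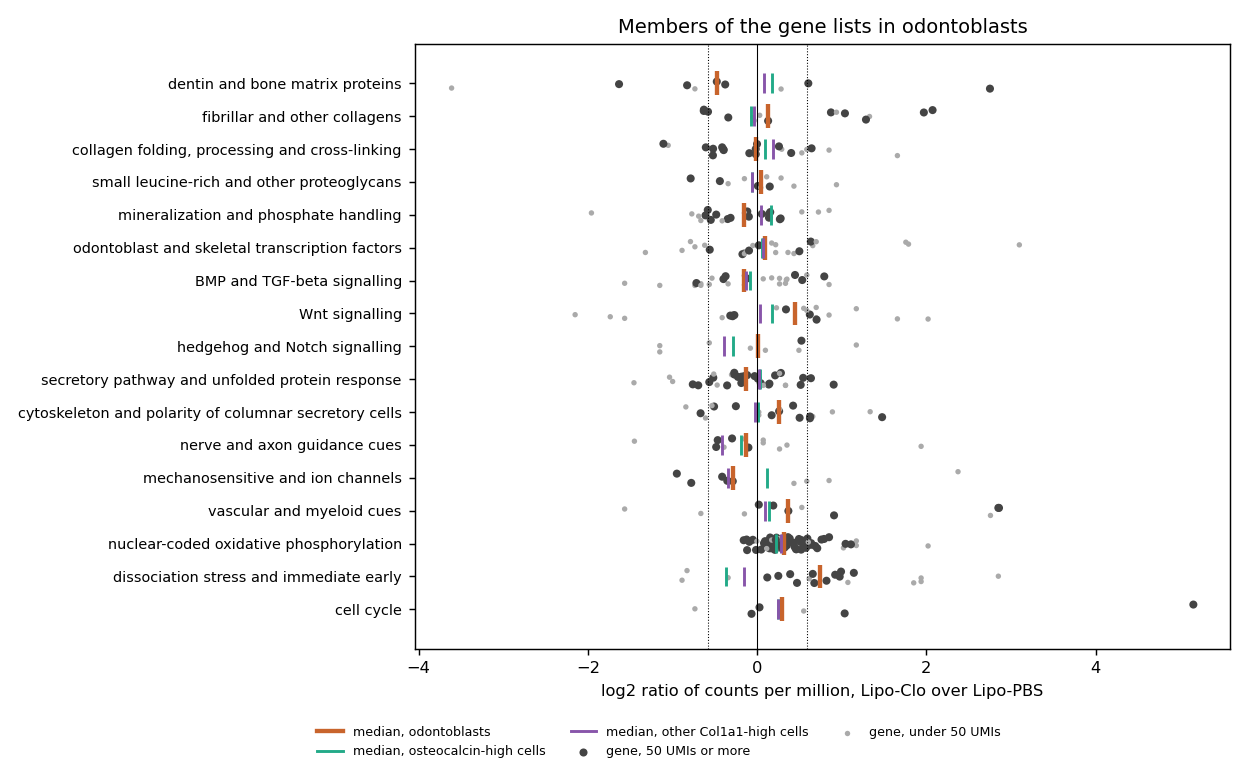
Log2 ratio of CPM, Lipo-Clo over Lipo-PBS, for each member of 17 gene lists in odontoblasts (dark points, 50 or more UMIs over both libraries; grey points, fewer), with the list median in odontoblasts (orange), osteocalcin-high cells (green) and other Col1a1-high cells (purple). Dotted lines are at 1.5-fold. In 8 of the 17 lists, among them the dentin and bone matrix and the immediate early lists, the odontoblast median is on the other side of 0 from both groups of comparison cells, while oxidative phosphorylation is above 0 in all 3. Of these 8 medians, only the dentin and bone matrix and the immediate early ones kept their sign in all 11 alternatives. The interval of the matrix median over its genes included equal levels (-1.63 to 0.60). Collagen folding (-0.02), proteoglycans (0.04) and hedgehog and Notch (0.01) lie near 0.

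Nuclear-coded oxidative phosphorylation genes, which build the respiratory chain and ATP synthase, were mostly higher in Lipo-Clo. Of 66 genes, 59 were above equal levels, 16 past 1.5-fold and none past it in the other direction, and the median log2 ratio was 0.32. Over all genes with a ratio, 54.2% were above equal levels, and 25.8% of the genes used were past the limit higher, a share close to that of this list. Ndufb10 (complex I) was at 301 and 146 CPM (1.04, 0.32 to 1.84) and Cox6b1 (complex IV) at 1053 and 676 CPM (0.64, 0.29 to 1.00). The shift was not particular to odontoblasts. All 66 genes were above equal levels in osteocalcin-high cells (median 0.22) and in the other Col1a1-high cells (median 0.29). Mitochondrially coded transcripts went the other way: they were 0.353% of odontoblast UMIs in Lipo-Clo and 1.37% in Lipo-PBS, and 0.368% and 1.74% over all kept cells.

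The immediate early and dissociation stress genes, which rise within minutes in disturbed cells, had 13 of 20 past the limit higher and 2 lower, with a median of 0.75. Jund was at 568 and 300 CPM (0.92, 0.41 to 1.46) and Ier2 at 260 and 131 CPM (0.99, 0.22 to 1.84). In osteocalcin-high cells 19 of the 20 were lower in Lipo-Clo (median -0.37), and in the other Col1a1-high cells 16 were lower (-0.16). The odontoblast median was 0.28 without cells that held UMIs of other classes and 0.12 with at least 20 Dspp UMIs. The median of all genes was 0.12 under each of these settings. With at least 20 Dspp UMIs the list was thus level with all genes. Of 21 cell cycle genes, 6 were used. Mki67, Top2a, Cdk1 and Birc5 had 48 UMIs in Lipo-Clo, 23 of them in 1 cell, and 0 in Lipo-PBS.

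UMIs of other cell classes lay in some odontoblasts. A cell was counted as carrying another class when it had at least 10 UMIs over that class's markers or at least 1% haemoglobin UMIs. The condition was met in 14 of 52 Lipo-Clo and 4 of 24 Lipo-PBS cells. Markers of pulp or papilla and of osteoblasts, osteocytes or cementoblasts were not used for it. In Lipo-Clo, 7 cells carried markers of periodontal ligament or follicle, 3 of leukocytes, 2 of dividing cells, 1 of ameloblasts and 1 of other epithelium, and 4 carried haemoglobin. In Lipo-PBS, 1 cell each carried markers of ligament or follicle, other epithelium and perivascular cells, and 2 carried haemoglobin, which made up 57.2% and 50.1% of their UMIs. Both thus passed the limit of 20% haemoglobin UMIs used here for erythroid cells, and the highest share in a Lipo-Clo odontoblast was 11.3%. The 12 leukocyte markers summed to 299 UMIs in Lipo-Clo (1036 CPM, 153 UMIs in 1 cell, S100a8 the most abundant) and 13 in Lipo-PBS (99.9 CPM, S100a9 the most abundant). C1qa and C1qb, which define macrophages, were at 0 in both. Scrublet, a doublet caller, placed 3 Lipo-Clo and 0 Lipo-PBS odontoblasts among the top scores. Leaving out all cells with such UMIs left 38 and 20 odontoblasts, a log2 ratio of the share of 0.93 (0.11 to 1.79).

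Genes at the extremes of the comparison were named by a rule of size: at least 50 UMIs, an interval clear of equal levels and one sign in all 3 Dspp groups. Of 975 candidates, 78 met it in the higher and 34 in the lower direction. The 10 with the largest ratio in the higher direction were S100a8, Igfbp5, Igf1, Blvrb, Pim1, S100a9, Stmn1, Col12a1, Tuba1b and Cyba. S100a8, a calcium-binding protein of neutrophils, had 121 UMIs in 20 Lipo-Clo cells and none in Lipo-PBS, a log2 ratio of 4.18 when Lipo-PBS is set to a floor of 3 UMIs and of at least 3.86 by the counting interval, with 62.0% of the UMIs in 1 cell. Against the same floor it was 1.53 without cells that held UMIs of other classes and 1.39 in cells thinned to 1500 UMIs. S100a8 and S100a9 are themselves among the leukocyte markers used to leave out those cells. S100a9, the partner of S100a8, had 79 UMIs in 33 cells and 7 in 4 cells. Its log2 ratio of 2.35 was 0.94 in cells thinned to 1500 UMIs. The same genes were in more cells of Lipo-Clo elsewhere: S100a9 had a UMI in 51.7% of the other Col1a1-high cells in Lipo-Clo but 18.3% in Lipo-PBS, beside 63.5% and 16.7% of odontoblasts. For S100a8 the shares were 25.8% and 9.55% beside 38.5% and 0%. Both are neutrophil genes and are not read here as odontoblast expression. The part of free RNA in their UMIs was not tested.

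Igfbp5 and Igf1, a binding protein and the growth factor it binds, were at 668 and 92.2 CPM (2.86, 2.02 to 3.84) and 166 and 23.1 CPM (2.85, 1.22 to 5.18). In cells without UMIs of other classes the ratios were 1.46 (0.54 to 2.49) and 1.95 (0.19 to 4.34). They were 2.97 and 1.07 in cells thinned to 1500 UMIs. Both genes were higher in the other Col1a1-high cells (1900 and 1091 CPM for Igfbp5, 964 and 764 CPM for Igf1), and whether their odontoblast UMIs came from such cells was not tested. Blvrb, an enzyme of haem breakdown, and the kinase gene Pim1 had 58.5% and 71.2% of their Lipo-Clo UMIs in 1 cell each. Stmn1 had 42.6% of its Lipo-Clo UMIs in 1 cell, the same cell as for Blvrb. That cell held 11.3% haemoglobin UMIs and 23 UMIs of dividing markers. The top cell of Pim1 was also that of S100a8 and held 153 UMIs of leukocyte markers. Stmn1 and Tuba1b, genes of the microtubule cytoskeleton that are high in dividing cells, had log2 ratios of 2.08 and 1.72, which turned to -1.53 and -0.11 in cells without UMIs of other classes. Col12a1 was at 391 and 99.9 CPM (1.97, 1.14 to 2.92), and 1 Lipo-PBS cell held 76.9% of its UMIs there. The ratio was 3.85 in cells without UMIs of other classes. Cyba, a subunit of the superoxide-producing oxidase, was at 190 and 61.5 CPM (1.63, 0.55 to 2.91). In cells without UMIs of other classes the intervals included equal levels for Cyba (1.21, -0.12 to 2.79), Blvrb (1.41, -0.02 to 3.16) and Pim1 (1.79, -0.37 to 4.99), as for Stmn1 and Tuba1b.

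The 10 genes with the largest ratio in the lower direction were Dmp1, Rbfox2, Ccdc80, Gm56768, Dnajc1, Irx5, Tent5a, Copb1, Kcnip4 and Kcnma1. Apart from Dmp1 they rested on 24 to 56 UMIs in each library. Rbfox2, a splicing regulator, had 27 UMIs in 23 cells and 33 UMIs in 18 cells (-1.44, -2.23 to -0.66). Irx5, a homeobox gene of craniofacial development, had 38 UMIs in 25 cells and 36 in 17 (-1.07, -1.77 to -0.37). Tent5a, a poly(A) polymerase that extends collagen transcripts in bone-forming cells, had 30 UMIs in 18 cells and 28 in 13 (-1.05, -1.84 to -0.25). Copb1, a coat protein of vesicles between Golgi and endoplasmic reticulum, had 26 UMIs in 20 cells and 24 in 14 (-1.03, -1.89 to -0.17). Kcnip4, a subunit that modulates potassium channels, had 34.7% of its Lipo-PBS UMIs in 1 cell. Its ratio of -0.96 was -0.59 without the top cell of each library. It was the most abundant of the pulp or papilla markers, which the filter for other classes did not use. At least 10 UMIs of those markers were held by 1 Lipo-Clo and 2 Lipo-PBS odontoblasts. All 10 ratios kept their sign in cells without UMIs of other classes, from -2.06 for Dmp1 to -0.52 for Tent5a, and the interval then included equal levels for Dnajc1, Tent5a, Copb1 and Kcnma1.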

How the data were processed

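The authors deposited counts (UMIs) per gene and cell for 34285 genes, unnormalized, and the file headers name Cell Ranger 8.0.0. The submitters' processing notes list Cell Ranger 3.1.0, Seurat 3.1.1 and GRCm39. How reads in introns or shared by paralogs were counted is not given in the sources used here. The libraries held 31053404 UMIs in 9362 cells (Lipo-Clo) and 30537834 in 9653 (Lipo-PBS).

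Odontoblasts were called as described, UMIs were summed per library, scaled to CPM and compared as log2 ratios. Intervals are exact and cover counting error, except those of list medians, which are by rank over the genes of the list. A gene at 0 was set to a floor of 3 UMIs per library, with no ratio when both were at or under it. Genes with a UMI in 10% of the odontoblasts of either library were used. Doublets were scored with Scrublet in scanpy 1.11.5. Its automatic threshold called 0% and 0.0112% of cells, so the top 7.11% and 7.12% were taken as calls, left out only as an alternative. Alternatives used edgeR 4.0.16 TMM and DESeq2 1.42.0 size factors, other totals, thinning and other limits. The ratio code was tested on simulated counts. Named genes were list and marker members, the 10 genes in each direction by size, and the 20 leading genes against other Col1a1-high cells. The cells, lists and markers were chosen with earlier results of these data known, and the filter for other classes, the depth bands and the 2% Bglap limit after seeing the cells. Promoter sequences are from RefSeq on GRCm38.p6. Results for some genes are not reported here.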

Additional observations from a re-analysis of the deposited data

How the results depend on the processing

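No paired analysis was possible because there was only 1 library for each treatment, and no replicate could be left out. The higher odontoblast share in Lipo-Clo kept its direction under all 13 alternatives (log2 ratio 0.79 to 1.44, beside 1.12). These alternatives are not independent. Col1a1 limits of 0.5% and 2% called the same 52 and 24 cells, and some alternatives set those cells against another denominator. Most of the rest moved limits over much the same cells. The counts of 1614 genes higher and 1252 lower by 1.5-fold (of 6257 genes) became 750 and 451 of 2453 in cells thinned to 1500 UMIs, 628 and 376 of 2874 for genes with at least 20 UMIs, and 890 and 642 of 6257 at a 2-fold limit. The lower count became 1925 at the looser fold limit and 3514 of 13102 with no filter and 1 UMI added. The share of higher genes among those past the limit was 56.3%, and 39.2% with no filter. Of the repeated ratios of single named genes, 41 were classed as moved, 3 as reversed and 330 as neither. Signs turned in more repeats than those 3: Phex and Kcnk2, both at -0.35, kept theirs in 8 of 11 alternatives each. Phex reached 0.50 as a mean over scaled cells, and Kcnk2 0.27 with the 3 Dspp groups weighted equally. Of the repeated list medians, 7 moved out of their interval and 180 did not. Mineralization was 0.26 as a mean over scaled cells. In thinned cells BMP and TGF-β was 0.47, hedgehog and Notch 1.39 and cytoskeleton 0.65. Oxidative phosphorylation was 0.20 with the 3 Dspp groups weighted equally. Immediate early genes were 0.12 with at least 20 Dspp UMIs and 0.28 without cells of other classes. Without those cells, Stmn1 (-1.53) and Tuba1b (-0.11) changed sign. Postn went from 1.16 to -0.43, but it is itself a marker used to leave out those cells, so its drop follows from the filter. The median of all genes was 0.07, and 0.20 as a mean over scaled cells and 0.31 in thinned cells. It was 0.15 with the Dspp groups weighted equally and 0.12 with at least 20 Dspp UMIs. The causes were not tested. Depth limits most genes: 130112 UMIs in 24 Lipo-PBS cells make 3 UMIs worth 23.1 CPM.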

Other observations

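A few gene groups were not described above. The thrombospondin gene Thbs1 was at 1129 CPM in Lipo-Clo against 1453 in Lipo-PBS odontoblasts, against 129 and 156 CPM in osteocalcin-high cells. The receptor phosphatase gene Ptprz1, best known from glia, was at 423 and 384 CPM against 32.4 and 57.1 CPM, and Sorbs2, an adaptor of actin filaments, at 426 and 492 CPM against 73.3 and 78.3 CPM. These 3 genes were picked after their values had been seen. The cell cycle inhibitor gene Cdkn1a had a UMI in 41 of 52 and 21 of 24 odontoblasts, at 367 and 384 CPM, beside 96.1 and 98.0 CPM in the other Col1a1-high cells. Ribosomal protein genes made up 12.6% of odontoblast UMIs in Lipo-Clo and 9.75% in Lipo-PBS, and 14.2% and 12.2% over all kept cells.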
